A study of Mus musculus with 16 samples.

Results

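The enzymes and receptors of leukotriene and prostaglandin biology were followed in myeloid-derived suppressor cells (MDSCs), immature myeloid cells that accumulate in tumour-bearing hosts and restrain T cells. The members were the rows of the deposited count tables whose gene symbol was *Alox5*, *Alox5ap*, *Lta4h*, *Ltc4s*, *Ltb4r1*, *Alox15*, *Pla2g7*, *Ptgs1*, *Hpgds* or *Ptger4*, and all 10 were found among 24421 symbols. RNA came from monocytic MDSCs (M-MDSCs) and granulocytic MDSCs (G-MDSCs) sorted from the spleens of 8 C57BL/6 mice carrying a subcutaneous B16.F10 melanoma, 4 of them wild type (WT) and 4 *Nlrp3*-/-. Each library held the RNA of 1 mouse, and each numbered spleen in the labels appears with 1 library of either subset, so the 4 groups of 4 libraries are read here as both subsets of 8 mice. The labels name no treatment beyond the tumour, which every group carried, and no tumour-free mouse was sequenced here. The mice were 6 to 12 weeks old by the study's general rule, and neither the age nor the day of harvest was given for the individual samples.

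The *Nlrp3*-/- allele carries an EGFP cassette with a viral poly(A) signal joined to the start codon of the gene, and it was present in all cells of the animal, so that an effect in the sorted cells cannot be told apart from an effect of other *Nlrp3*-deficient cells of the host. The study also reports that *Nlrp3*-/- mice had smaller B16.F10 tumours and fewer granulocyte macrophage progenitors in the marrow. It further reports more M-MDSCs and fewer G-MDSCs in their spleens. Genotype cannot be told apart from these differences here. The question of the genotype comparison was whether both subsets depend on NLRP3, the sensor protein of an inflammasome that matures interleukin-1β. The question of the subset comparison was how G-MDSCs and M-MDSCs of the same mice differ.

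Arachidonic acid, released from membrane phospholipids by phospholipases, is the shared substrate of both pathways. 5-Lipoxygenase, encoded by *Alox5*, works with its membrane partner FLAP, encoded by *Alox5ap*, to make leukotriene A4. LTA4 hydrolase (*Lta4h*) turns this intermediate into leukotriene B4, a chemoattractant of neutrophils, whereas LTC4 synthase (*Ltc4s*) couples it to glutathione and opens the cysteinyl leukotriene branch. The cyclooxygenases, *Ptgs1* for the constitutive and *Ptgs2* for the inducible enzyme, make prostaglandin H2, from which terminal synthases such as the haematopoietic prostaglandin D synthase (*Hpgds*) form the individual prostanoids. Neutrophils are a known source of leukotriene B4, and prostaglandin E2 has long been linked to MDSC function in tumours.

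Each library held between 2295967 and 6079866 counted reads, so that 3 counts, taken as the smallest amount shown, corresponded to 0.349 to 1.17 counts scaled to 1000000 reads (CPM). Levels are CPM after one TMM scaling of all 16 libraries, and since reads start near the 3′ end of transcripts and fragments were not divided by length, levels were compared between groups of one gene and not between genes. *Nlrp3* itself had 219 to 632 counts in M-MDSCs of WT mice and 4 to 11 in those of *Nlrp3*-/- mice, and 744 to 1365 against 21 to 59 in G-MDSCs. Summed over 9 monocyte markers the M-MDSC libraries held 5732 to 9786 CPM and the G-MDSC libraries 788 to 1351 CPM. Summed over the 11 neutrophil markers present in the tables, M-MDSC libraries held 1460 to 8764 CPM, the highest in WT replicate 2, and G-MDSC libraries 115400 to 175800 CPM. Each subset thus held its own markers at the higher level, and *Ly6g*, a gene that defines granulocytic cells, was not among the symbols used here. All 5 haemoglobin genes listed were at 0 in every library.

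**Figure D1:**
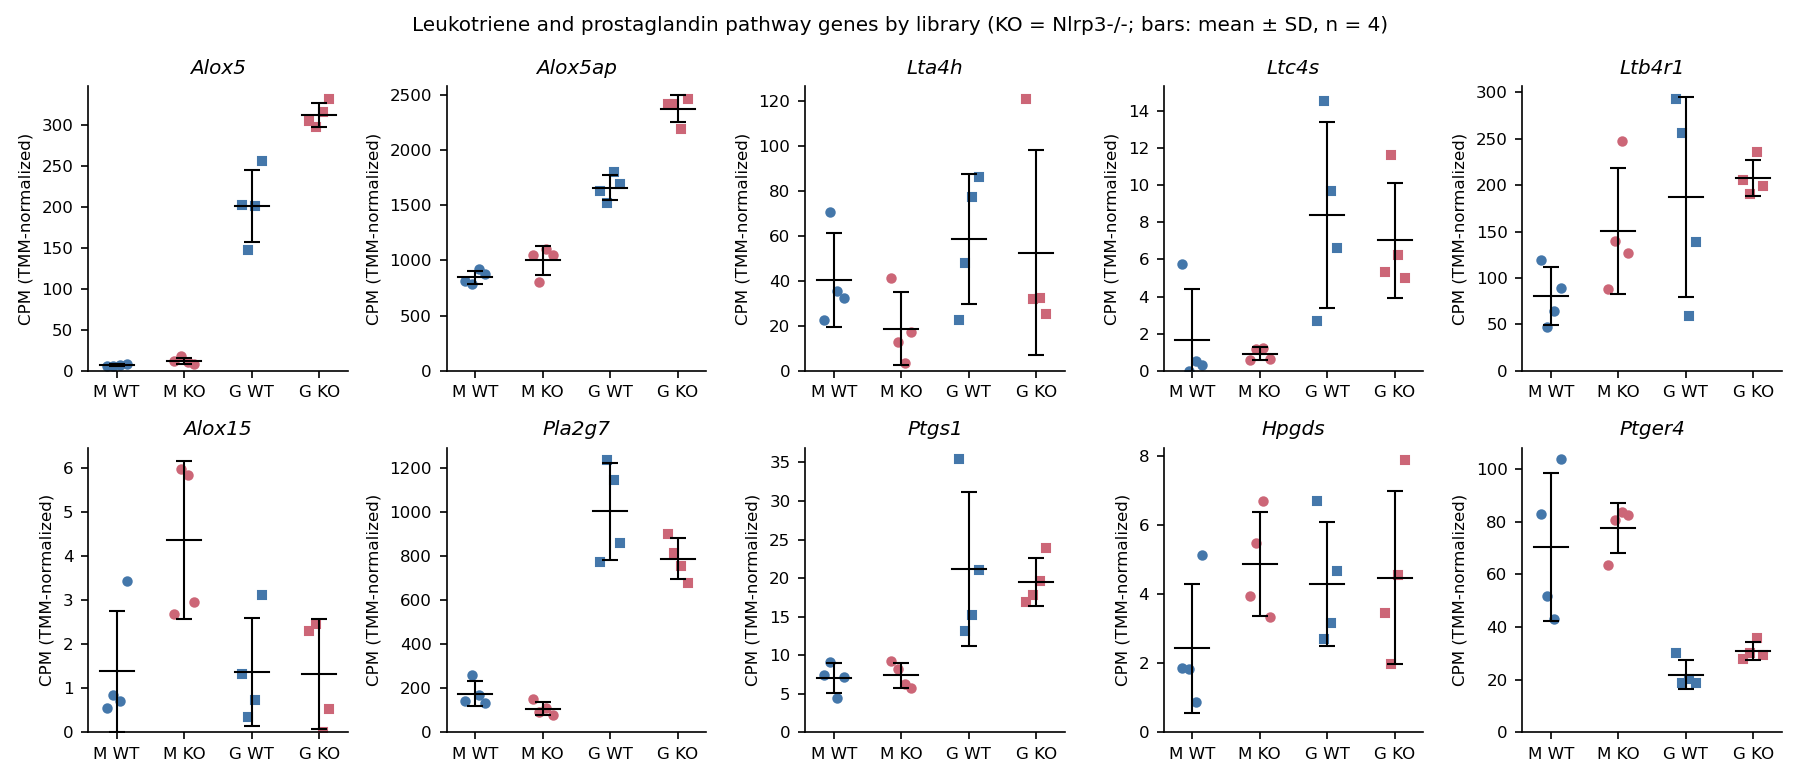
Level of each of the 10 genes in every library (CPM, linear axis), with 1 panel per gene, 1 point per library and a line with error bar for the mean ± SD of the 4 mice of a group. The G-MDSC points of *Alox5*, *Alox5ap*, *Pla2g7* and *Ptgs1* lie above all M-MDSC points of the same genotype, and those of *Ptger4* lie below.

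Most calls among these genes came from the subset comparison. In WT mice 8 members passed the filter on low counts and 7 of them differed between G-MDSCs and M-MDSCs, 6 higher and 1 lower in G-MDSCs, by edgeR's quasi-likelihood test at a Benjamini-Hochberg adjusted p under 0.05 with a fold change over 1.5. By the same rule 53.3% of the 9739 genes tested were called, 26.3% higher and 27.1% lower. In *Nlrp3*-/- mice all 10 members passed the filter and 6 were called, 5 higher and 1 lower, beside 51% of 10071 genes, 23.7% higher and 27.4% lower. The 2 subsets did not overlap for 5 members in WT mice and for 7 in *Nlrp3*-/- mice, beside 51.9% and 50.2% of all genes tested. The median log2 fold change of the members tested was 1.40 in WT mice and 1.204 in *Nlrp3*-/- mice, and that of all genes tested was -0.05 and -0.12. *Alox5*, *Alox5ap*, *Ltc4s*, *Pla2g7* and *Ptgs1* were called higher and *Ptger4* lower in both genotypes. Scaled by library size alone, the median of all genes moved to -0.79 and -0.83 and the lower calls made up 81.3% and 81.5% of all calls instead of 50.8% and 53.6%, whereas upper-quartile scaling gave 61.8% and 61.5%, so that changes of a member are best read against that median. In these sorted bulk samples fewer cells of a type and less RNA per cell cannot be told apart.

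The genotype contrast called none of the members under the same rule. In M-MDSCs 0 of 9 members tested were called by edgeR's quasi-likelihood test and 5 had an unadjusted p under 0.05, whereas 10.6% of 9986 genes were called (3.51% higher and 7.1% lower in *Nlrp3*-/- mice). DESeq2 called 3 members (*Alox5*, *Ltb4r1* and *Alox15*, all higher in *Nlrp3*-/- mice), beside 1424 of the 9986 genes. The exact test of edgeR called 2 (*Ltb4r1* and *Alox15*), beside 1324. In G-MDSCs 0 of 9 were called by the quasi-likelihood test and 3 had an unadjusted p under 0.05, whereas 16.4% of 9273 genes were called (4.7% higher and 11.7% lower). DESeq2 and the exact test each called 0 members there, beside 1785 and 1738 of the 9273 genes. The share of all genes with an unadjusted p under 0.05 was not counted in any comparison. Scaled by library size alone, the lower calls were 45.4% instead of 66.9% of all calls in M-MDSCs and 51.9% instead of 71.4% in G-MDSCs, where upper-quartile scaling gave 60.9%. The median log2 fold change of the members was 0.27 in M-MDSCs and -0.03 in G-MDSCs, and of all genes 0.07 and 0.03. Both contrasts use the same libraries, so the values of a gene in the subset and the genotype comparison are given side by side and not set against each other.

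**Figure D2:**
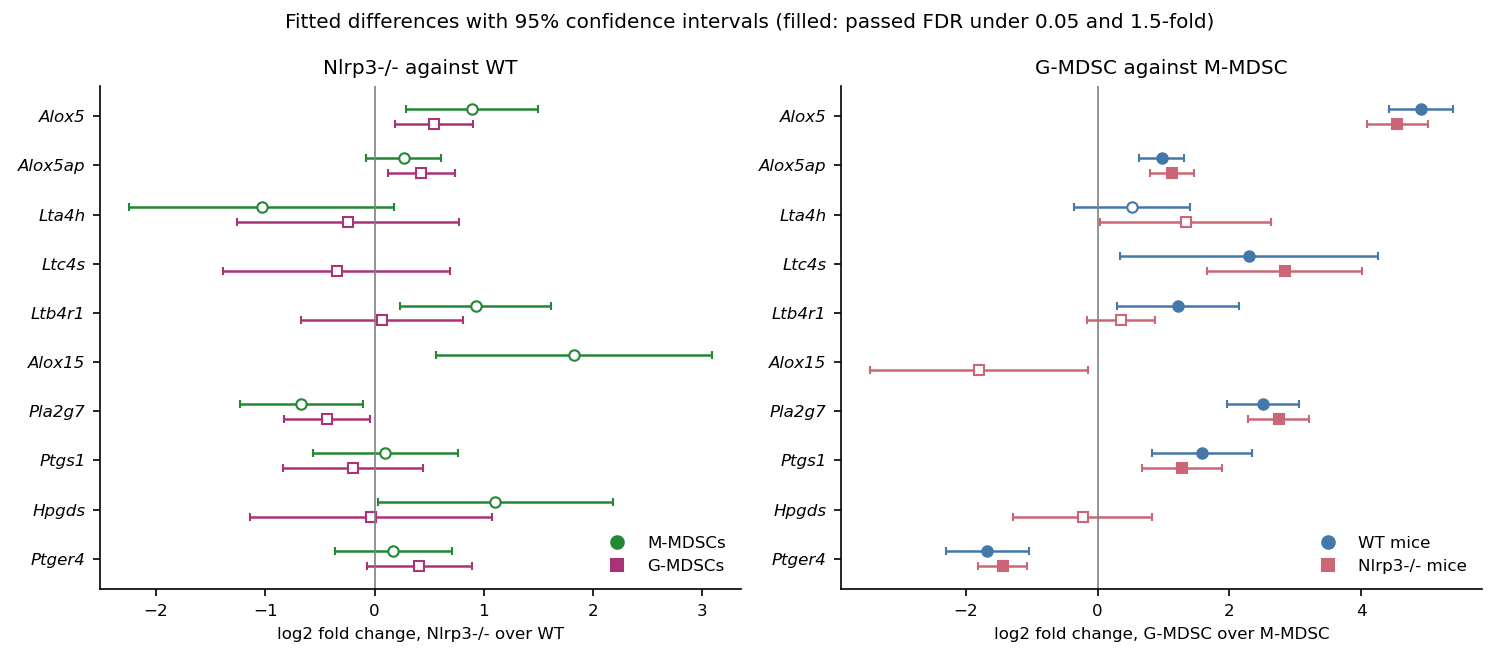
Log2 fold change of each member with its 95% confidence interval in the 4 comparisons, from edgeR's quasi-likelihood fit of the 2 groups compared, where filled points passed both thresholds and open points did not. The G-MDSC against M-MDSC values of *Alox5* and *Pla2g7* stand far to the right in both genotypes and those of *Ptger4* to the left, whereas no genotype point is filled.

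Promoter sequence is shown for *Alox5*, *Pla2g7*, *Ptgs1* and *Ptger4*, members called in the same direction in both genotypes that held a match to a myeloid or general promoter motif, so that the starts of genes higher and lower in G-MDSCs can be read side by side. RefSeq (GRCm38.p6) gave a promoter for 8 of the 10 members. The 250 bases before the RefSeq start are written on the gene's own strand, 5′ to 3′, with motif matches in capitals. Motifs were searched on both strands of all 32851 promoters. They were the C/EBP motif TTGCNNAA (9.56% of all promoters), the PU.1 motif GAGGAAGT (2.44%), the GC box GGGCGG (32.7%) and the ETS core CGGAAG (13.6%).
Alox5 promoter (chr6:116461179-116461428, minus strand): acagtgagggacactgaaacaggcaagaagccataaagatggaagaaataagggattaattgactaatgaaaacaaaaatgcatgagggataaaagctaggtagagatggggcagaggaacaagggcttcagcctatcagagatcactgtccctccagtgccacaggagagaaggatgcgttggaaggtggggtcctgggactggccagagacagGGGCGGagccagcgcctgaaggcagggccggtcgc
Pla2g7 promoter (chr17:43568201-43568450, plus strand): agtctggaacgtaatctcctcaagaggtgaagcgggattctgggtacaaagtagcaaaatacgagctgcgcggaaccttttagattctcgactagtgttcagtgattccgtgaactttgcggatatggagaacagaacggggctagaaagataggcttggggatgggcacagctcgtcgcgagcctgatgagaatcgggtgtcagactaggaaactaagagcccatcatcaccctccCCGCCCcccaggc
Ptgs1 promoter (chr2:36230176-36230425, plus strand): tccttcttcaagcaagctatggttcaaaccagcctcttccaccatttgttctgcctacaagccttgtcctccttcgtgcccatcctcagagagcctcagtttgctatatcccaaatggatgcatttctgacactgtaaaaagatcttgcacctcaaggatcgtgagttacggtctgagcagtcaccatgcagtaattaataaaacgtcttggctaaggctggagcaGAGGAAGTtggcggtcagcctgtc
Ptger4 promoter (chr15:5244188-5244437, minus strand): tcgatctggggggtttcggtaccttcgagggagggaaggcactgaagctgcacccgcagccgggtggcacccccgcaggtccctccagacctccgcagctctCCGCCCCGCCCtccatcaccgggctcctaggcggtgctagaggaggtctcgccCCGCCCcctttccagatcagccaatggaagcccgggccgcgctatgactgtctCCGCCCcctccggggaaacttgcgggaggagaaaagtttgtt
*Alox5* has 1 GC box 35 to 30 bases before its start. *Pla2g7* has 1 GC box 13 to 8 bases before its RefSeq start, on the other strand. Its printed bases lie inside the gene as placed by the mm10 annotation used for positions, where it begins at chr17:43568098. *Ptgs1* has 1 PU.1 motif 24 to 17 bases before its start, and *Ptger4* has 4 GC boxes on the other strand, of which the first 2 overlap. Over the 8 promoters a GC box was found in 4, the PU.1 motif in 2, the C/EBP motif in 1 and the ETS core in 0. The share of G and C was 52.8% in *Alox5* and in *Pla2g7*, 48% in *Ptgs1* and 66.8% in *Ptger4*, beside a median of 52.4% and quartiles of 45.2% and 61.2% over all promoters. A match describes letters of the reference and is not a measured binding site.

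*Alox5* (chr6:116410077-116461178, minus strand, mm10), the gene of 5-lipoxygenase, showed the widest range of the 10. In M-MDSCs of WT mice replicates 1 to 4 gave 6.50, 5.62, 6.96 and 8.22 CPM, from 35, 40, 39 and 24 counts. In G-MDSCs of the same mice it gave 202.0, 147.6, 200.9 and 255.7 CPM. The subsets did not overlap, and the ratio of G-MDSCs to M-MDSCs within a mouse ran from 16.6 to 37.4 over the 8 mice. The fitted log2 fold change was 4.90 (SE 0.22, 29.9-fold) in WT mice with an adjusted p of 1.74e-08 by edgeR's quasi-likelihood test. In *Nlrp3*-/- mice it was 4.55 (SE 0.22, 23.4-fold) with an adjusted p of 1.09e-09 by the same test.

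Within each subset *Alox5* lay higher in every *Nlrp3*-/- library than in every WT library. The *Nlrp3*-/- M-MDSCs gave 12.2, 17.9, 10.4 and 8.86 CPM (mean 12.4 ± 3.95 SD, n = 4, against 6.83 ± 1.08 in WT). The *Nlrp3*-/- G-MDSCs gave 304.7, 297.5, 316.4 and 331.3 CPM (mean 312.5 ± 14.8, against 201.5 ± 44.2). Neither difference passed both thresholds. In M-MDSCs the log2 fold change was 0.89 (SE 0.28, 95% interval 0.289 to 1.497) with an adjusted p of 0.0572 by edgeR's quasi-likelihood test. In G-MDSCs the log2 fold change was 0.55 (SE 0.17, interval 0.19 to 0.91) with an adjusted p of 0.0361 by that test, and at 1.46-fold it stayed under the minimum of 1.5. Without WT replicate 4, the highest WT library, it was 0.69 in G-MDSCs with an adjusted p of 0.0168 and passed both. This was 1 of 5 calls over 20 alternatives in G-MDSCs. The others came from upper-quartile scaling, scaling by library size alone, the model of all 16 libraries and no fold minimum. In M-MDSCs *Alox5* was called in 4 of 20: library size alone, a minimum of 10 counts, DESeq2 and the model of all 16 libraries. Groups that do not overlap were found for 19.3% of the genes tested in M-MDSCs and 24.4% in G-MDSCs, and for 1 and 2 of 9 members. The mean rose from M-MDSC WT over M-MDSC *Nlrp3*-/- and G-MDSC WT to G-MDSC *Nlrp3*-/-, 45.8-fold from the lowest to the highest, and the neighbours that share a subset did not differ by the rule used.

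*Alox5ap* (chr5:149264767-149288153, plus strand), which encodes the protein that presents arachidonic acid to 5-lipoxygenase, followed the same order of the groups over a range of 2.8-fold. WT M-MDSCs gave 811, 785, 919 and 876 CPM and WT G-MDSCs 1629, 1520, 1797 and 1692 CPM, and within a mouse the ratio of G-MDSCs to M-MDSCs was 1.93 to 3 and above 1 in 8 of 8 mice. The log2 fold change between subsets was 0.97 (SE 0.16, adjusted p = 0.000225, edgeR's quasi-likelihood test) in WT mice. It was 1.13 (SE 0.15, adjusted p = 2.65e-05, same edgeR test) in *Nlrp3*-/- mice. Scaled by library size alone the WT value was 0.22, with an adjusted p of 0.264 by the same edgeR test, and the *Nlrp3*-/- value was 0.41. Against the median of all genes under each scaling the WT value was 1.01 by library size and 1.02 by TMM.

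*Nlrp3*-/- M-MDSCs gave 1045, 806, 1101 and 1047 CPM of *Alox5ap* and overlapped with WT through replicate 2. *Nlrp3*-/- G-MDSCs gave 2419, 2414, 2191 and 2461 CPM and lay above every WT library. The log2 fold change between genotypes was 0.43 (SE 0.14, interval 0.12 to 0.73) in G-MDSCs, with an adjusted p of 0.0514 by edgeR's quasi-likelihood test. In M-MDSCs it was 0.27 (SE 0.16, interval -0.07 to 0.61) with an adjusted p of 0.274 by that test. Summed neutrophil markers in M-MDSCs were 1460 to 8764 CPM in WT and 2211 to 2558 CPM in *Nlrp3*-/- libraries. WT replicate 2 had the highest sum and the lowest *Alox5* of the WT M-MDSCs (5.625 CPM). Of the other members called higher in G-MDSCs in both genotypes, it was lowest in *Alox5ap* (785 CPM) and *Ltc4s* (0 CPM). In *Pla2g7* (260.3 CPM) and *Ptgs1* (9.14 CPM) it was the highest of the WT M-MDSCs. Without WT replicate 2 the log2 fold change of *Alox5* between genotypes was 0.81 with an adjusted p of 0.141 by the edgeR test. Leaving out each M-MDSC library in turn gave 0.62 to 0.99. The part of neutrophils in the M-MDSC values of *Alox5*, *Alox5ap*, *Ltc4s*, *Pla2g7* and *Ptgs1* was not tested.

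*Lta4h* (chr10:93453411-93484875, plus strand), the gene of the enzyme that completes leukotriene B4, varied widely between the mice of each group. WT M-MDSCs gave 22.7, 70.6, 35.5 and 32.2 CPM and WT G-MDSCs 22.7, 47.7, 77.3 and 86.0 CPM. *Nlrp3*-/- M-MDSCs gave 41.4, 12.97, 3.55 and 17.1 CPM and *Nlrp3*-/- G-MDSCs 120.6, 32.1, 32.3 and 25.2 CPM. Mouse 1 of the *Nlrp3*-/- group was the highest of its group in both subsets, and all groups overlapped. Between subsets the log2 fold change was 0.53 (SE 0.40, adjusted p = 0.282, edgeR's quasi-likelihood test) in WT mice, where scaling by library size alone gave -0.19. It was 1.34 (SE 0.60, adjusted p = 0.0756, same edgeR test) in *Nlrp3*-/- mice. With the mouse as a block the *Nlrp3*-/- value was 1.42 with an adjusted p of 0.000368 by the same edgeR test and passed, and without M-MDSC replicate 1 of that genotype it was 2.099 with an adjusted p of 0.00474. Within a mouse the ratio of G-MDSCs to M-MDSCs ran from 0.676 in WT mouse 2 over 1 in WT mouse 1 to 9.1, and it was 1.47 or more in the other 6. Between genotypes the log2 fold change was -1.03 (SE 0.56, interval -2.25 to 0.18, adjusted p = 0.234, edgeR's quasi-likelihood test) in M-MDSCs. Without *Nlrp3*-/- replicate 1 it was -1.84 with an adjusted p of 0.0184 by that edgeR test and passed. In G-MDSCs it was -0.24 (SE 0.48, adjusted p = 0.76, edgeR's quasi-likelihood test).

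*Ltc4s* (chr11:50236461-50238616, minus strand), the entry enzyme of the cysteinyl leukotrienes, was a low gene in both subsets. WT M-MDSCs held 31, 0, 3 and 1 counts, in CPM 5.76, 0, 0.54 and 0.34, and *Nlrp3*-/- M-MDSCs held 5, 7, 6 and 5 counts. WT G-MDSCs held 8, 43, 40 and 17 counts, in CPM 2.67, 14.6, 9.69 and 6.62, and *Nlrp3*-/- G-MDSCs held 23, 47, 30 and 19 counts, in CPM 5.31, 11.6, 6.22 and 4.98. WT replicate 1 stood above all other M-MDSC libraries and was the only mouse in which G-MDSCs were lower. Between subsets it was higher in G-MDSCs by 2.84 on the log2 scale (SE 0.55, adjusted p = 0.0006, edgeR's quasi-likelihood test) in *Nlrp3*-/- mice, whose subsets did not overlap. It was 2.30 (SE 0.90, interval 0.34 to 4.25, adjusted p = 0.0449, same edgeR test) in WT mice. The WT value was 4.82 with an adjusted p of 0.000609 by the edgeR test without M-MDSC replicate 1, and 1.76 to 2.40 with adjusted p of 0.0641 to 0.124 without any one of M-MDSC replicates 2, 3 and 4 and G-MDSC replicates 2, 3 and 4, each of which ended the call. It was also lost under upper-quartile scaling (2.09, adjusted p = 0.0614), scaling by library size alone (1.56, adjusted p = 0.137) and by DESeq2 (2.32, adjusted p = 0.122). Between genotypes the log2 fold change was -0.35 (SE 0.48, adjusted p = 0.66, edgeR's quasi-likelihood test) in G-MDSCs, and in M-MDSCs the gene had too few counts to be tested. *Ltc4s* lies 9.3 Mb and *Alox15* 10.8 Mb from *Nlrp3* on the same chromosome.

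*Ltb4r1* (chr14:55765962-55768494, plus strand) encodes BLT1, the high-affinity receptor through which leukotriene B4 attracts granulocytes. WT M-MDSCs gave 119.5, 47.8, 64.2 and 89.8 CPM and WT G-MDSCs 293.1, 256.2, 59.1 and 138.9 CPM. *Nlrp3*-/- M-MDSCs gave 88.3, 140.4, 247.3 and 126.9 CPM and *Nlrp3*-/- G-MDSCs 205.1, 190.1, 235.6 and 199.3 CPM. The *Nlrp3*-/- G-MDSCs were close to each other, and replicate 3 was the lowest of the WT G-MDSCs and the highest of the *Nlrp3*-/- M-MDSCs. Between subsets the log2 fold change was 1.23 (SE 0.42, adjusted p = 0.0269, edgeR's quasi-likelihood test) in WT mice. It fell under the threshold without any one of M-MDSC replicates 2, 3 and 4 and G-MDSC replicates 1 and 2, with log2 fold changes of 0.93 to 1.21 and adjusted p of 0.0593 to 0.0851 by the same edgeR test. It was also lost under upper-quartile scaling (1.02, adjusted p = 0.0555) and scaling by library size alone (0.46, adjusted p = 0.337) in the edgeR test. In *Nlrp3*-/- mice it was 0.36 (SE 0.24, adjusted p = 0.222, edgeR's quasi-likelihood test), was -0.35 when scaled by library size alone, and passed at 0.68 with an adjusted p of 0.00529 without M-MDSC replicate 3.

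Between genotypes the log2 fold change of *Ltb4r1* was 0.92 (SE 0.32, interval 0.23 to 1.62) in M-MDSCs, where the 2 groups overlapped, with an adjusted p of 0.0783 by edgeR's quasi-likelihood test. It passed at 1.197 (adjusted p = 0.0416) without WT replicate 1 and at 1.08 (adjusted p = 0.0283) without *Nlrp3*-/- replicate 1 by the same edgeR test. In G-MDSCs it was 0.07 (SE 0.34, interval -0.67 to 0.81) with an adjusted p of 0.912 by that test.

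*Alox15* (chr11:70344152-70352031, minus strand), whose product oxygenates arachidonic acid at other positions and which eosinophils and resident macrophages are known to express, was near the smallest amount shown in most libraries. WT M-MDSCs held 3, 6, 4 and 10 counts and *Nlrp3*-/- M-MDSCs 23, 35, 28 and 23 counts, in CPM 0.56, 0.84, 0.71 and 3.43 against 2.68, 5.97, 5.85 and 2.96. WT replicate 4 lay among the *Nlrp3*-/- libraries. Between genotypes it was 1.82 on the log2 scale (SE 0.58, interval 0.56 to 3.09) in M-MDSCs, with an adjusted p of 0.0611 by edgeR's quasi-likelihood test. It passed at 2.58 (adjusted p = 0.0265) without WT replicate 4 and at 1.98 (adjusted p = 0.0405) without *Nlrp3*-/- replicate 1 by that edgeR test. G-MDSCs held 4, 1, 3 and 8 counts in WT and 10, 10, 0 and 2 in *Nlrp3*-/- mice, and the gene was not tested between genotypes there. Between subsets it was not tested in WT mice. In *Nlrp3*-/- mice the log2 fold change was -1.79 (SE 0.77, adjusted p = 0.0634, edgeR's quasi-likelihood test) with no overlap, and it passed with the mouse as a block (-2.04, adjusted p = 0.0459) and without G-MDSC replicate 2 (-2.25, adjusted p = 0.0489) by the same edgeR test.

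Markers of cells known to carry *Alox15*, and those of T and NK cells, were read in the same libraries. The 9 eosinophil markers summed to 18.2 to 43.5 CPM in WT and 39.6 to 82.2 CPM in *Nlrp3*-/- M-MDSCs. In G-MDSCs they summed to 30.7 to 56.4 CPM in WT and 61.7 to 66.6 CPM in *Nlrp3*-/- libraries. Of these 9, *Epx* was at no more than 0.70 CPM in any library, so the other listed genes made up nearly all of each sum. Markers of spleen macrophages summed to 129 to 160 CPM in WT and 249 to 398 CPM in *Nlrp3*-/- M-MDSCs. In G-MDSCs the same sum was 437 to 781 CPM in WT and 1005 to 1247 CPM in *Nlrp3*-/- libraries, where the mean of *Alox15* was 1.38 ± 1.23 (SD, n = 4) and 1.33 ± 1.25 CPM. *C1qa* was at 6.33 to 8.38 against 31.6 to 46.1 CPM in M-MDSCs, and *Mertk* was at 0 in all WT M-MDSC libraries. T and NK cell markers summed to 106 to 145 CPM in WT and 154 to 258 CPM in *Nlrp3*-/- M-MDSCs. The part of these cells in the *Alox15* values, and in the other genotype values of either subset, was not tested.

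**Figure D3:**
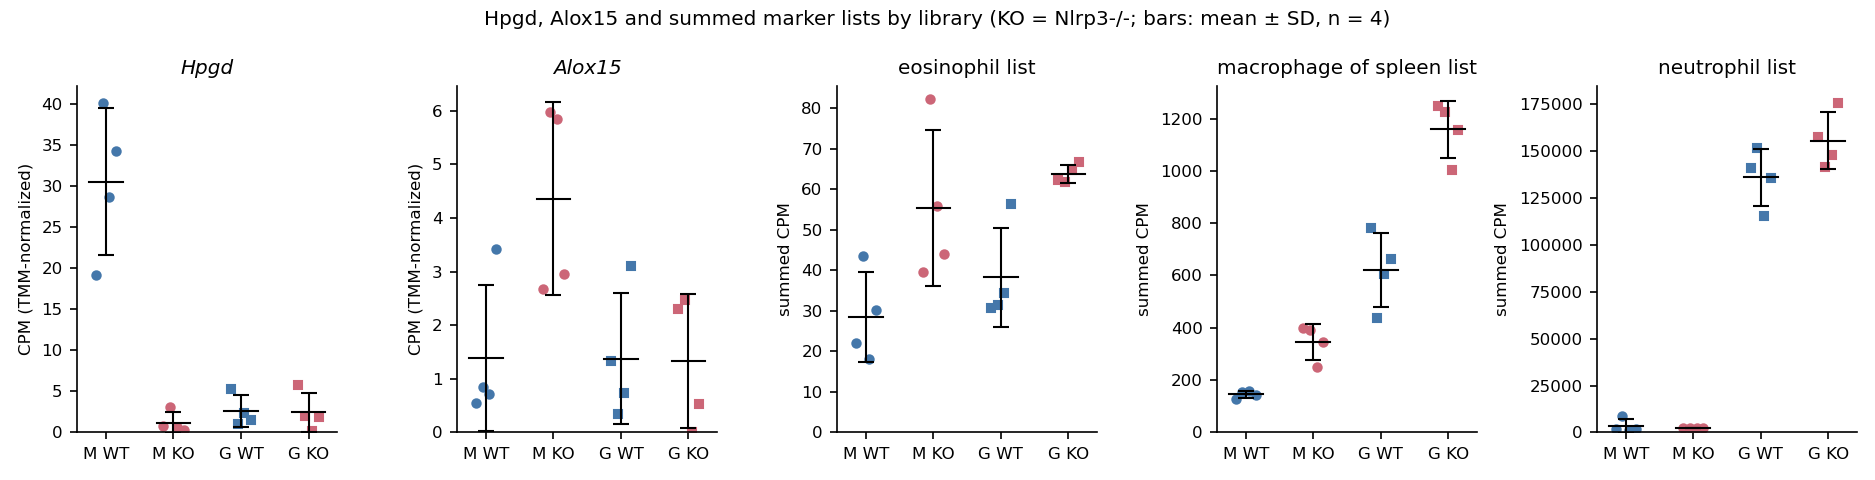
Level of *Hpgd* and *Alox15* and the summed level of the eosinophil, spleen macrophage and neutrophil markers in every library (CPM), by group. In M-MDSCs the *Nlrp3*-/- libraries are lower in *Hpgd* and higher in the spleen macrophage sum (249 to 398 against 129 to 160 CPM), and the neutrophil sum of WT M-MDSC replicate 2 (8764 CPM) stands above the other M-MDSC libraries.

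*Pla2g7* (chr17:43568098-43612201, plus strand) encodes the secreted phospholipase that inactivates platelet-activating factor (PAF), a lipid mediator made beside the eicosanoids. WT M-MDSCs gave 144.2, 260.3, 168.4 and 131.2 CPM and WT G-MDSCs 772.2, 1233, 1142 and 858.9 CPM. *Nlrp3*-/- M-MDSCs gave 149.3, 94.2, 111.9 and 77.7 CPM and *Nlrp3*-/- G-MDSCs 900.5, 814.2, 755.6 and 678.5 CPM. G-MDSCs were higher in 8 of 8 mice, by 4.74 to 8.73, with no overlap in either genotype. The log2 fold change between subsets was 2.51 (SE 0.25, 5.69-fold, adjusted p = 5.4e-06, edgeR's quasi-likelihood test) in WT mice. It was 2.75 (SE 0.21, 6.71-fold, adjusted p = 1.06e-07, same edgeR test) in *Nlrp3*-/- mice.

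Unlike the genes of the 5-lipoxygenase complex, *Pla2g7* had a lower mean in *Nlrp3*-/- mice in both subsets, with overlapping groups and no call. In M-MDSCs the log2 fold change was -0.67 (SE 0.26, interval -1.23 to -0.11) with an adjusted p of 0.109 by edgeR's quasi-likelihood test. It was -0.92 with an adjusted p of 0.023 and passed without *Nlrp3*-/- replicate 1, and was -0.41 with an adjusted p of 0.323 without WT replicate 2, by the same edgeR test. In G-MDSCs it was -0.44 (SE 0.18, interval -0.83 to -0.04) with an adjusted p of 0.115 by that test. WT replicate 2 of the M-MDSCs, the highest of its group in *Pla2g7*, was also the M-MDSC library with the highest neutrophil marker sum (8764 CPM).

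*Ptgs1* (chr2:36230426-36252272, plus strand), the gene of cyclooxygenase-1, was higher in G-MDSCs in 8 of 8 mice, by 1.44 to 4.76. WT M-MDSCs gave 7.43, 9.14, 4.46 and 7.20 CPM and WT G-MDSCs 35.4, 13.2, 15.3 and 21.0 CPM. *Nlrp3*-/- M-MDSCs gave 9.31, 8.19, 6.27 and 5.78 CPM and *Nlrp3*-/- G-MDSCs 16.9, 17.8, 19.7 and 23.9 CPM. The subsets did not overlap in either genotype, and mouse 1 of the WT group had the highest G-MDSC value. Between subsets it differed by 1.58 on the log2 scale (SE 0.35, 2.99-fold, adjusted p = 0.00215, edgeR's quasi-likelihood test) in WT mice. It was 1.28 (SE 0.28, 2.43-fold, adjusted p = 0.00166, same edgeR test) in *Nlrp3*-/- mice, and scaled by library size alone it was 0.55 with an adjusted p of 0.111. Between genotypes it was 0.10 (SE 0.30, interval -0.56 to 0.76) in M-MDSCs and -0.20 (SE 0.30, interval -0.84 to 0.45) in G-MDSCs, with adjusted p of 0.866 and 0.689 by edgeR's quasi-likelihood test.

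*Hpgds* (chr6:65117293-65144908, minus strand), the haematopoietic prostaglandin D synthase, was low in all groups. WT M-MDSCs gave 1.86, 1.83, 0.89 and 5.14 CPM (10, 13, 5 and 15 counts) and *Nlrp3*-/- M-MDSCs 3.96, 5.46, 6.68 and 3.34 CPM (34, 32, 32 and 26 counts). WT G-MDSCs gave 6.68, 2.71, 3.15 and 4.67 CPM and *Nlrp3*-/- G-MDSCs 3.46, 1.98, 4.56 and 7.87 CPM. All groups overlapped, and G-MDSCs were higher in 4 of 8 mice. Between genotypes the difference was 1.11 on the log2 scale (SE 0.49, interval 0.03 to 2.18) in M-MDSCs, with an adjusted p of 0.155 by edgeR's quasi-likelihood test. In G-MDSCs it was -0.03 (SE 0.52, interval -1.14 to 1.08, adjusted p = 0.977, same edgeR test), and its sign turned under upper-quartile scaling (0.04) and scaling by library size alone (0.08). Between subsets it was -0.23 (SE 0.49, adjusted p = 0.72, edgeR's quasi-likelihood test) in *Nlrp3*-/- mice. In WT mice the gene did not pass the filter, and with no filter the difference was 0.86 (adjusted p = 0.229, same edgeR test). It passed the filter in each of the 8 fits without 1 library, of which 7 gave 0.57 to 1.10 with adjusted p of 0.119 to 0.396, and the one without M-MDSC replicate 4 gave 1.41 and a call (adjusted p = 0.0364, edgeR's quasi-likelihood test).

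*Ptger4* (chr15:5206661-5244187, minus strand), the EP4 receptor that couples prostaglandin E2 to cyclic AMP, was the only member called lower in G-MDSCs. WT M-MDSCs gave 83.1, 51.8, 43.2 and 103.8 CPM and WT G-MDSCs 30.1, 18.6, 20.4 and 18.7 CPM. *Nlrp3*-/- M-MDSCs gave 63.4, 80.5, 83.5 and 82.7 CPM and *Nlrp3*-/- G-MDSCs 28.0, 30.1, 35.8 and 29.4 CPM. G-MDSCs were lower in 8 of 8 mice, at 0.18 to 0.471 of the M-MDSC level, with no overlap. The log2 fold change between subsets was -1.67 (SE 0.29, 3.19-fold lower, adjusted p = 0.000381, edgeR's quasi-likelihood test) in WT mice. It was -1.44 (SE 0.17, 2.72-fold lower, adjusted p = 8.78e-06, same edgeR test) in *Nlrp3*-/- mice. Between genotypes it was 0.17 (SE 0.25, interval -0.37 to 0.71) in M-MDSCs and 0.41 (SE 0.22, interval -0.07 to 0.89) in G-MDSCs, with adjusted p of 0.684 and 0.222 by edgeR's quasi-likelihood test.

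**Figure D4:**
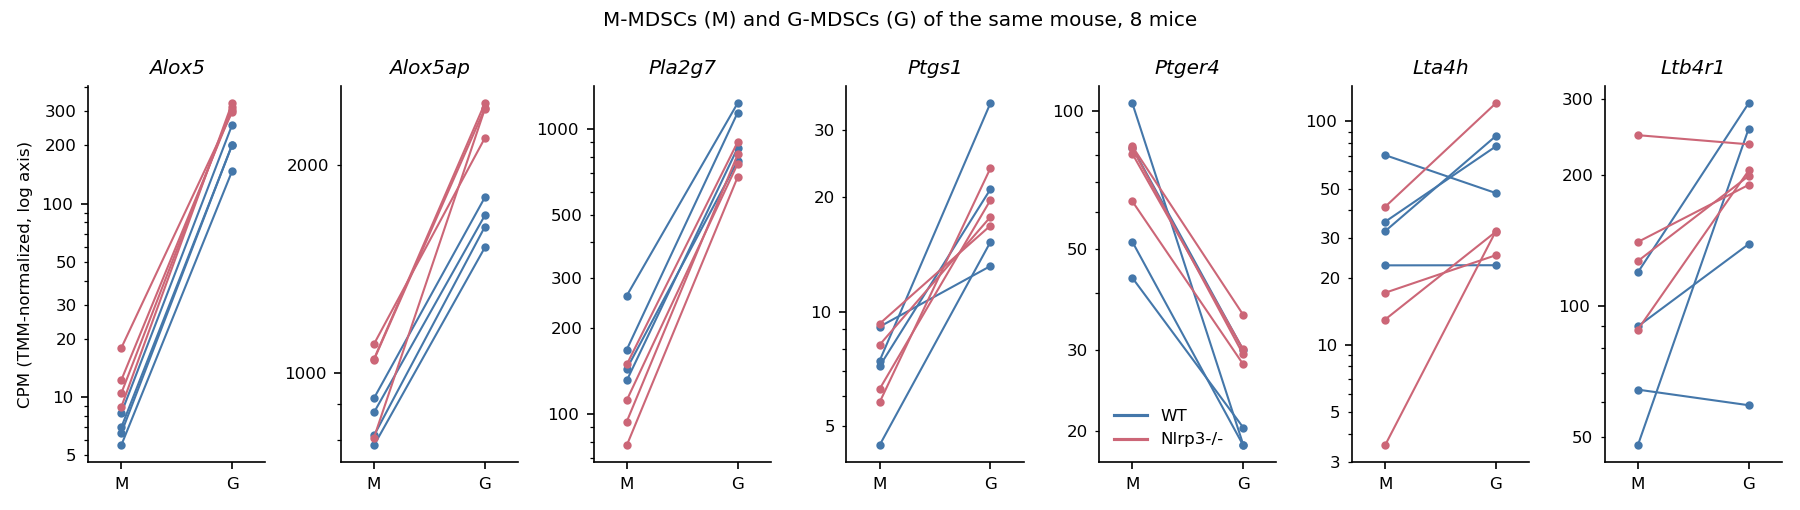
Level of 7 members in M-MDSCs and G-MDSCs of the same mouse (CPM, log axis), with 1 line per mouse and the genotypes in different colours. All 8 lines rise for *Alox5*, *Alox5ap*, *Pla2g7* and *Ptgs1* and all 8 fall for *Ptger4*, whereas *Lta4h* rises in 6, is level in 1 and falls in 1, and *Ltb4r1* rises in 6 of 8 mice.

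The difference of the genotype effect between the subsets was tested in 1 model of all 16 libraries, which held no block for the mouse. With the mouse as a block 0 of 10 members were called. DESeq2 called 0 of 10 members, beside 8 of 10696 genes. By edgeR's quasi-likelihood test 0 of 10 members were called and 0 had an unadjusted p under 0.05, beside 3 of 10696 genes called (0.028%, of which 0.0187% were higher and 0.00935% lower in this difference). The estimate, G-MDSCs minus M-MDSCs on the log2 scale, was -0.24 (interval -0.85 to 0.37) for *Alox5* and 0.28 (interval -0.15 to 0.71) for *Alox5ap*. It was -1.78 (interval -4.24 to 0.68) for *Alox15* and -0.76 (interval -1.86 to 0.35) for *Ltb4r1*. These intervals leave the sign of the difference between the subsets open, and the data do not show that the effect was alike in the 2 subsets.

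A list of 60 other genes of the 2 pathways was counted by role in the same fits. Between subsets, 20 of 33 genes tested were called in WT mice (11 higher and 9 lower in G-MDSCs, 60.6%) and 19 of 33 in *Nlrp3*-/- mice (11 higher and 8 lower, 57.6%), beside 53.3% and 51% of all genes, and 16 were called in both genotypes. All genes tested that were listed under leukotriene conversion and breakdown were called, 6 of 6 in WT mice (4 higher and 2 lower) and 7 of 7 in *Nlrp3*-/- mice (5 higher and 2 lower). *Cotl1*, counted among those higher in both genotypes, encodes a binding partner of 5-lipoxygenase and not a converting enzyme. Of the genes of prostanoid breakdown and transport, 4 of 4 and 2 of 3 were called, each lower in G-MDSCs. Of prostanoid synthesis, 1 of 6 and 2 of 6 were called. For the receptor of PAF and the enzymes of its metabolism it was 4 of 6 and 2 of 6, and for arachidonate release and recycling 2 of 8 and 3 of 8. None of the other lipoxygenases had enough counts for these comparisons.

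Among the genes higher in G-MDSCs, *Ggt5*, which removes glutamate from leukotriene C4, had 3.21 to 5.80 CPM in M-MDSCs and 64.6 to 144.4 CPM in G-MDSCs, with log2 fold changes of 4.61 (SE 0.26) and 4.66 (SE 0.19) in WT and *Nlrp3*-/- mice and adjusted p of 5.62e-08 and 3.33e-10 by edgeR's quasi-likelihood test. *Lpcat2*, a PAF-forming acyltransferase, had log2 fold changes of 3.43 and 3.21, and *Mgll*, which releases arachidonic acid from endocannabinoid, of 4.50 and 3.57. The PAF receptor gene *Ptafr* was higher by 2.29 and 3.19, and *Cyp4f18*, an inactivating hydroxylase of leukotriene B4, by 2.03 and 2.05. *Mboat7*, which returns arachidonic acid to phosphatidylinositol, was higher by 1.71 and 1.66, and *Mgst2*, a glutathione transferase that can also form leukotriene C4, by 1.79 and 2.77. *Ptgs2*, the inducible cyclooxygenase, was higher by 2.99 (SE 0.46, adjusted p = 0.000166) and 2.80 (SE 0.38, adjusted p = 2.67e-05) by edgeR's quasi-likelihood test, on the log2 scale. Its WT levels were 4.27, 20.4, 15.5 and 3.77 CPM in M-MDSCs and 70.5, 64.3, 103.9 and 126.9 CPM in G-MDSCs.

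*Dpep2*, the dipeptidase that forms leukotriene E4 from D4, had 29.0 to 47.1 CPM in M-MDSCs and 0 to 4 counts in WT and 0 to 12 counts in *Nlrp3*-/- G-MDSCs. *Cysltr1*, a receptor of leukotriene D4, had 8.02 to 20.9 CPM in M-MDSCs and 0 to 6 counts in G-MDSCs. Both were called lower in G-MDSCs of both genotypes. *Ptgr1*, a reductase that inactivates leukotriene B4 and prostaglandins, was lower in G-MDSCs by log2 fold changes of -2.80 and -2.60. The leukotriene C4 exporter gene *Abcc1* was lower by -1.995 and -2.409 and the prostaglandin exporter gene *Abcc4* by -1.04 and -1.51. *Ptgir*, the prostacyclin receptor, was lower by -1.55 and -2.63. *Tbxas1*, thromboxane synthase, was not called, at 0.52 and -0.19. The second leukotriene B4 receptor *Ltb4r2* had 0 to 6 counts and *Ptges*, the inducible prostaglandin E synthase, 0 to 16 counts per library, and neither was tested.

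**Figure D5:**
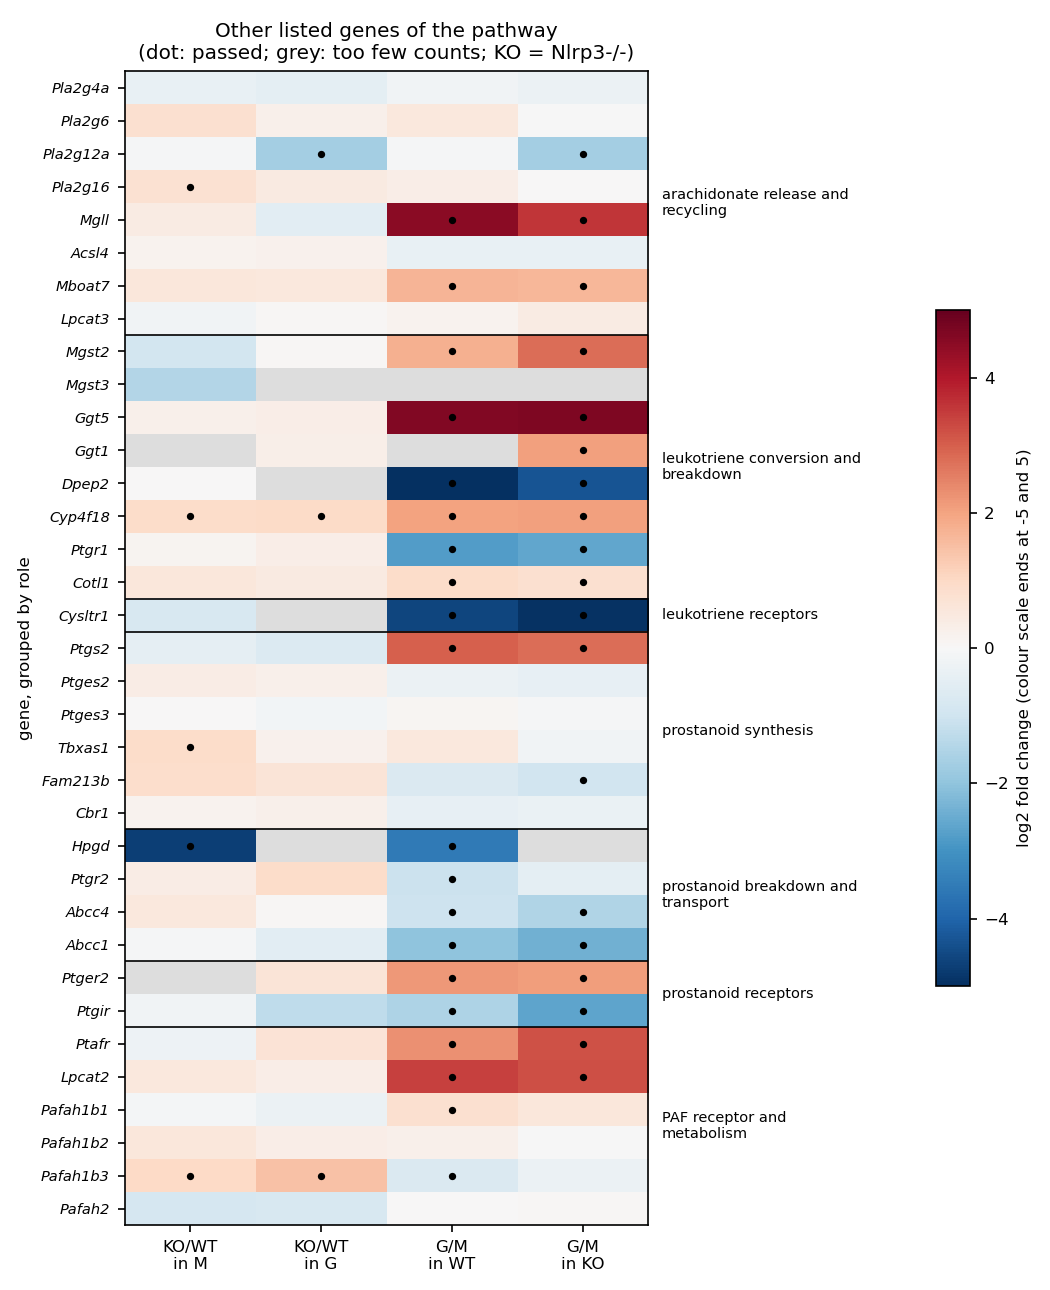
Log2 fold change of the tested genes of the pathway list, without the members, in the 4 comparisons as a heat map, ordered by role, where the colour runs from lower to higher, a dot marks genes that passed both thresholds and grey marks genes with too few counts. Most dots stand in the 2 subset columns, and in the M-MDSC genotype column the darkest cell is *Hpgd*.

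Between genotypes 5 of 33 genes of the list were called in M-MDSCs (4 higher and 1 lower in *Nlrp3*-/- mice, 15.2% beside 10.6% of all genes) and 3 of 31 in G-MDSCs (2 higher and 1 lower, 9.68% beside 16.4%). The median log2 fold change of the list was 0.16 and 0.26. The gene called lower in M-MDSCs was *Hpgd* (chr8:56294585-56321043, plus strand), the dehydrogenase that starts the breakdown of prostaglandins. It gave 19.1, 40.2, 28.7 and 34.3 CPM in WT M-MDSCs (103, 286, 161 and 100 counts) and 0.81, 3.07, 0.63 and 0.26 CPM in *Nlrp3*-/- M-MDSCs (7, 18, 3 and 2 counts). The groups were far apart. On the log2 scale the change was -4.69 (SE 0.52, 25.8-fold lower) with an adjusted p of 0.000897 by edgeR's quasi-likelihood test, and it stayed past both thresholds in each of 19 alternative settings, at -5.73 to -4.35. In G-MDSCs *Hpgd* gave 5.34, 1.01, 2.42 and 1.56 CPM in WT and 5.78, 1.98, 0.21 and 1.84 CPM in *Nlrp3*-/- mice, too few counts for a test between genotypes. The genotype effect was 4.60 higher (SE 0.96) on the log2 scale in G-MDSCs than in M-MDSCs, with an adjusted p of 0.295 by edgeR's quasi-likelihood test, whereas DESeq2 gave 0.00229 and the edgeR test without a filter 0.00445. It was also called by edgeR's quasi-likelihood test without M-MDSC *Nlrp3*-/- replicate 2 (5.60, adjusted p = 0.0336) or without G-MDSC *Nlrp3*-/- replicate 3 (5.01, adjusted p = 0.0282).

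The 4 genes called higher in *Nlrp3*-/- M-MDSCs belong to different roles. *Tbxas1*, thromboxane synthase, gave 27.3, 13.6, 27.5 and 29.8 CPM in WT and 39.9, 47.6, 46.8 and 48.6 CPM in *Nlrp3*-/- M-MDSCs, and the difference was 0.93 on the log2 scale (SE 0.23) with an adjusted p of 0.0251 by edgeR's quasi-likelihood test. *Cyp4f18* was higher by 0.92 (SE 0.23, adjusted p = 0.0282), *Pafah1b3*, a subunit of the intracellular PAF hydrolase, by 1.00 (SE 0.26, adjusted p = 0.0304) and *Pla2g16*, a phospholipase, by 0.77 (SE 0.21, adjusted p = 0.0334) by the same edgeR test. These calls were lost in 4 (*Tbxas1*), 8 (*Cyp4f18*), 9 (*Pafah1b3*) and 8 (*Pla2g16*) of 20 alternatives. Leaving out *Nlrp3*-/- replicate 2 ended each of them. *Tbxas1* was also lost without *Nlrp3*-/- replicate 4, *Cyp4f18* without WT replicates 1, 2 or 3 or *Nlrp3*-/- replicate 3, *Pafah1b3* without WT replicates 2, 3 or 4 or *Nlrp3*-/- replicates 3 or 4, and *Pla2g16* without any one WT replicate or *Nlrp3*-/- replicate 4.

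In G-MDSCs *Pafah1b3* was called higher, by 1.46 (SE 0.28, adjusted p = 0.00283), and *Cyp4f18* by 0.94 (SE 0.26, adjusted p = 0.0236) by the edgeR test. The call of *Pafah1b3* was lost in 1 and that of *Cyp4f18* in 4 of 20 alternatives, the latter without *Nlrp3*-/- replicate 2 or 4 among them. *Pla2g12a*, a secreted phospholipase, was called lower there at -1.70 (SE 0.55, adjusted p = 0.0454, same edgeR test) and lost the call in 11 of 19 alternatives, among them those without WT replicates 1, 2 or 4 or *Nlrp3*-/- replicates 1, 2 or 4. *Ptgs2* did not pass in M-MDSCs at -0.46 (adjusted p = 0.601) or in G-MDSCs at -0.69 (adjusted p = 0.0976), *Ptafr* was at -0.24 (adjusted p = 0.589) and 0.67 (adjusted p = 0.06) and *Cysltr1* in M-MDSCs at -0.78 (adjusted p = 0.0757) by edgeR's quasi-likelihood test. For the difference between the subsets, 0 of 36 genes of the list were called by the edgeR test, beside 3 of 10696 genes, and 5 had an unadjusted p under 0.05. DESeq2 called 1 of the list (*Hpgd*), beside 8 of 10696 genes.

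The genes whose log2 CPM ran most like a member's over the 16 libraries are given as a description, since the libraries share a subset split and a mouse, and the correlation within each subset covers 8 libraries of 2 genotypes. *Alox5* ran most like *Slc2a3* (Pearson's r = 0.993, within M-MDSCs 0.72 and within G-MDSCs 0.896) and *Ggt5* (r = 0.992, 0.708 and 0.837), and 1049 of 10695 other genes had an r over 0.9 with it. *Alox5ap* ran most like *Tyrobp* (r = 0.988, within subsets 0.848 and 0.954) and *Skap2* (r = 0.984). *Pla2g7* ran closely with *Clec5a* (r = 0.986, within subsets 0.935 and 0.583). *Ptger4* was nearest to *Tmem173* (r = 0.958, 0.613 and 0.937) and *Gm5431* (r = 0.956). For *Ptgs1* the nearest genes were *Slc22a15* (r = 0.937, within M-MDSCs 0.0222 and within G-MDSCs 0.894) and *Ovgp1* (r = 0.935).

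For *Lta4h*, 18 genes passed an r of 0.9. *Snrnp70*, a spliceosome gene, had an r of 0.948 (within M-MDSCs 0.982 and within G-MDSCs 0.863) and *Alkbh5*, an RNA demethylase gene, of 0.942 (0.957 and 0.861). *Ltb4r1* ran most like *Scand1* (r = 0.926, within subsets 0.947 and 0.87) and *Atp6ap1* (r = 0.896), with 1 gene over 0.9. *Ltc4s* ran most like *Rara* (r = 0.908) and *Hacd4* (r = 0.906), *Alox15* most like *Parp11* (r = 0.787) and *Arel1* (r = 0.783), and *Hpgds* most like *Alkbh4* (r = 0.78) and *Gpr107* (r = 0.737).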

How the data were processed

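Per the labels and the study's methods, 3′-end libraries (QuantSeq FWD, 15 or 17 PCR cycles) were aligned by the authors with hisat2 2.1.0 to mm10 and counted per gene with htseq-count 0.11.2 on the sense strand. The authors deposited raw counts, 1 table per library, without molecular identifiers, so floors cover counting error only. Libraries were grouped by subset and genotype as labelled, and none of the 24 replicate pairs was identical.

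Counts were tested with edgeR 4.0.16 (R 4.3.3) after filterByExpr and TMM scaling, with the quasi-likelihood F test on the 2 groups compared, called at an adjusted p under 0.05 (Benjamini-Hochberg over all genes tested) and a fold change over 1.5, and by the adjusted p alone for the interaction over 16 libraries. The fit was also run on counts simulated with the same dispersion for all genes and no mouse effect. That run does not show how well the fit suits these data. The main fits held no block for the mouse. Log2 CPM used a prior count of 2. Alternatives were upper-quartile or no scaling, other filters, the exact test, DESeq2 1.42.0, 1 model of all libraries, a block by number, a correction for GC content and length (24054 of 24421 genes matched) and leaving out each library. For G-MDSCs against M-MDSCs the pairing comes from the labels, which give the 2 libraries of a number the same spleen name, and their deviations correlated at 0.0983 to 0.447 in WT and 0.00821 to 0.396 in *Nlrp3*-/- mice, under 0.1 in 3 of 8 pairs.

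The members and all gene lists were chosen with earlier results of these data known. Named genes were the 10 members, at most 5 higher and 5 lower called genes of the pathway list per comparison, taken by p, *Ptgs2*, *Ltb4r2*, *Cysltr1*, *Tbxas1*, *Ptges*, *Hpgd* and *Ptafr* in any case, the targeted gene, and the 2 genes most correlated with each member, with *Cotl1* named besides. 1 gene named by this rule is not reported here. Other marker lists gave summed ranges of 78.9 to 315 CPM (B cells), 106 to 292 (T and NK cells, by genotype above for M-MDSCs), 8.57 to 52.4 (platelets) and 36.8 to 115.5 (dendritic cells), and basophil and mast cell markers reached 2171 to 4278 CPM in G-MDSCs, mostly *Hdc*. Positions are from the mm10 annotation, and genes that overlap *Ltc4s*, *Pla2g7*, *Ptgs1*, *Ptger4*, *Alox5ap* or *Hpgds* lie on the other strand.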

Additional observations from a re-analysis of the deposited data

Results flagged for a closer look

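A single library stood apart from the other 3 of its group, by Dixon's gap ratio above its 95% critical value for 4 values, in 5 of 40 combinations of member and group, where chance gives about 1 in 20. *Lta4h* in G-MDSCs of *Nlrp3*-/- mice was 120.6 CPM in replicate 1 and 25.2 to 32.3 CPM in the others. *Ltc4s* in M-MDSCs of WT mice was 5.76 CPM in replicate 1 and 0 to 0.535 CPM in the others. *Alox15* in M-MDSCs of WT mice was 3.43 CPM in replicate 4 and 0.557 to 0.844 CPM in the others. *Ptger4* was lowest in replicate 1 of the M-MDSCs of *Nlrp3*-/- mice, 63.4 CPM against 80.5 to 83.5 CPM. *Ptger4* was highest in replicate 1 of the G-MDSCs of WT mice, 30.1 CPM against 18.6 to 20.4 CPM. For no member did edgeR's quasi-likelihood test of the interaction call a difference of the genotype effect between the subsets.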

How the results depend on the processing

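Across the alternatives *Alox5*, *Pla2g7* and *Ptger4* kept their direction and their call between subsets in both genotypes. Scaled by library size alone, members called were 3 between genotypes in M-MDSCs, 1 in G-MDSCs and 4 between subsets in WT mice, *Lta4h* and *Tbxas1* turned to -0.19 and -0.24 between WT subsets, and *Ltb4r1* to -0.35 between *Nlrp3*-/- subsets. Members called between genotypes in M-MDSCs were also 1 with no filter, 1 with a minimum of 10 counts, 2 by the exact test, 3 by DESeq2 and 1 in the model of all 16 libraries, and in G-MDSCs 1 with upper-quartile scaling, 1 in that model and 1 with no fold minimum. Of all genes these settings called 1097, 1056, 1324, 1424 and 1015 in M-MDSCs and 1628, 1907 and 1675 in G-MDSCs. Library size alone called 1253 and 1647 between genotypes and 6227 between WT subsets. *Hpgds* between genotypes in G-MDSCs turned to 0.0366 (upper quartile), 0.0831 (library size), 0.0582 (model of all libraries), 0.35 (GC content and length) and 0.29 (the same with the replicate block). *Ltb4r1* there turned to -0.35 and -0.13 under these last 2, and *Ptgs2* in M-MDSCs to 0.0466 under the last. The causes were not tested.

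WT and *Nlrp3*-/- mice share only a replicate number (correlations of deviations -0.488 to 0.0251 in M-MDSCs and -0.33 to -0.0512 in G-MDSCs). With the replicate block 425 genes were called between genotypes in M-MDSCs and 985 in G-MDSCs, instead of 1060 and 1522, of the pathway list 1 (*Hpgd*) and 2 instead of 5 and 3. Corrected for GC content and length they were 649 and 958, and with both 41 and 391. The interaction of *Ltc4s* turned to -0.25 with the block and -0.36 with both. Between subsets the mouse block changed no member call beyond those of *Lta4h* and *Alox15* given above. The interaction called 5 genes with no filter and 8 by DESeq2.

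Under scaling by library size alone the mean CPM in M-MDSC WT, M-MDSC *Nlrp3*-/-, G-MDSC WT and G-MDSC *Nlrp3*-/- was 8.61, 16.9, 152.1 and 240.5 for *Alox5* and 1069, 1373, 1246 and 1825 for *Alox5ap*. It was 149.4, 749.5 and 608.5 for *Pla2g7* and 106, 16.4 and 23.8 for *Ptger4* in the last 3 of these, 10.2 and 15.0 for *Ptgs1* in *Nlrp3*-/- M-MDSCs and G-MDSCs, 6.61 for *Hpgds* in *Nlrp3*-/- M-MDSCs and 160.2 for *Ltb4r1* in *Nlrp3*-/- G-MDSCs.

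Leaving out 1 library gave 450 to 1783 genes called between genotypes in M-MDSCs (1783 without *Nlrp3*-/- replicate 1, and 514, 669, 473, 702 and 450 without WT replicates 2, 3 and 4 and *Nlrp3*-/- replicates 3 and 4), 1104 to 1544 in G-MDSCs and 2 to 5 for the interaction (5 without G-MDSC *Nlrp3*-/- replicate 3), and 0 to 4 and 0 to 1 members. Log2 fold changes between genotypes then crossed 0 in G-MDSCs for *Hpgds* (-0.42 to 0.25), *Ltb4r1* (-0.21 to 0.35), *Ltc4s* (-0.70 to 0.0587) and *Ptgs1* (-0.36 to 0.15), and in M-MDSCs for *Ptgs1* (-0.0861 to 0.27), *Ptger4* (-0.00822 to 0.41), *Ptafr* (-0.43 to 0.0442) and *Ptgs2* (-0.94 to 0.0294). The *Hpgds* difference between *Nlrp3*-/- subsets ran from -0.61 to 0.0515, and interactions crossed 0 for *Cysltr1* (-3.82 to 1.11), *Ltc4s* (-1.91 to 1.05), *Pla2g7* (-0.0748 to 0.47), *Ptgs1* (-0.51 to 0.18) and *Ptgs2* (-0.75 to 0.18). Of the values of single members under leave-one-out, 411 kept direction and side of the threshold, 16 turned, 10 gained and 11 lost a call. Counts near the floor of 3 limit *Ltc4s*, *Alox15* and *Hpgds*.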
